A study of Saccharomyces cerevisiae with 41 samples.

Results

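The comparison described here is between budding yeast lacking both SNF1 and RAD23 and their wild type, before any irradiation. It rests on 4 of the 41 arrays of the series, 2 of the snf1rad23 strain and 2 of wild type (WT), and on 5498 probe sets of budding yeast genes, of which 5380 were bright enough to be tested. All strains are haploids of the YPH499 background, grown in glucose-rich YPD at 30 °C to an OD600 of 1.0. The unirradiated cells were moved briefly into water and mock treated before total RNA was taken by hot acid phenol extraction. Beside them stand the unirradiated strains lacking SNF1 alone (snf1) or RAD23 alone (rad23), with 2 arrays each. WT and snf1rad23 cells taken 30 and 60 min after 100 J/m2 of UV-C, also with 2 arrays per group, give the same strain difference in other samples. How many independent clones each strain represents is not given in the sources used here. The 2 arrays of a group are called biological replicates, with nothing on separate cultures. The p-values thus measure the spread between replicate arrays, pooled over the groups of all 41 arrays.

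Snf1 is the catalytic subunit of the yeast AMP-activated protein kinase. When glucose runs low it inactivates the repressor Mig1 and works through the activators Cat8, Sip4 and Adr1, so that cells can use ethanol, acetate, lactate and fatty acids, while in plentiful glucose its target genes are largely silent. Rad23 binds the damage-recognition protein Rad4 in nucleotide excision repair and also carries ubiquitinated proteins to the proteasome. Cells without Snf1 cannot grow on most carbon sources other than glucose, and cells without Rad23 are moderately sensitive to UV.

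Values below are log2 array signal, a scale on which each unit multiplies the signal by 2, and differences are log2 differences with their standard error (SE) from 1 linear model over all arrays. A probe set was called at a Benjamini-Hochberg adjusted p under 0.05 over the 5380 tested, and a value near 2 is background. The deleted genes fitted the labels. SNF1 read 11.92 and 11.76 in WT, 11.22 and 11.03 in rad23, and 2.31 and 2.32 in snf1rad23, at least 720-fold lower than in WT. RAD23 read 12.50 and 12.85 in WT, 12.07 and 12.01 in snf1, and 1.91 and 2.14 in snf1rad23, at least 1283-fold lower than in WT. Both genes were thus at background in the double deletion strain and far above it wherever the label leaves them in place. RAD4 (8.55 and 8.72 against 8.53 and 8.96 in WT, adjusted p = 0.72) and MIG3 (9.72 and 10.21 against 9.78 and 9.50, adjusted p = 0.12), which are deleted in other strains of the series, were not called.

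Several marker and mating-type genes also separate the strains. HIS3, a histidine synthesis gene used as a selection marker, read 1.87 and 1.88 in WT, 13.61 and 13.49 in rad23, and 13.74 and 13.84 in snf1rad23, at least 2763-fold above WT. It was at background in snf1 as well, so its signal followed the RAD23 deletion. Of the other 4 tested markers 3 were lower: LEU2 by 0.71 ± 0.09 (adjusted p = 1.3e-06), URA3 from 6.91 and 7.76 to 6.15 and 6.28 (-1.12 ± 0.31, adjusted p = 0.0061), and ADE2 from 11.11 and 11.01 to 10.23 and 10.60 (-0.64 ± 0.19, adjusted p = 0.0093). The URA3 call was lost without WT replicate 2 (-0.69, adjusted p = 0.17) and the ADE2 call without WT replicate 1 or snf1rad23 replicate 1 (-0.59 and -0.45, adjusted p = 0.055 and 0.142). LYS2 was not called (-0.03). The receptor gene of MATa cells, STE2, stood at 13.92 and 13.63 in snf1rad23 against 13.86 and 13.82 in WT. Of 6 MATa-specific genes 1 was called higher than WT, 1 lower and 4 not called, with differences from -0.91 to 0.66. Among all probe sets 38.6% were called. Both alpha-factor genes were near background (MF(ALPHA)1 at 2.12 on both arrays, MF(ALPHA)2 at 1.99 and 2.88), as in MATa cells. STE3, the a-factor receptor of MATalpha cells, was nevertheless higher, at 8.23 and 8.0 against 5.48 and 5.86 (difference 2.44 ± 0.37, adjusted p = 2.5e-05), and so was the MATalpha agglutinin gene SAG1, at 9.80 and 9.35 against 8.42 and 7.86 (1.43 ± 0.26). Of the genes next to the deletions, ANP1, beside RAD23, did not differ from WT (0.24 ± 0.16, adjusted p = 0.21) and the SNF1 neighbour SNM1 did not either (0.07, adjusted p = 0.8).

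The WT replicates were over 2-fold apart at 41 probe sets and the snf1rad23 replicates at 72, and the median of the tested values was 10.63 to 10.77 on all arrays. Some control probes that reflect RNA integrity and rRNA differed between the unirradiated strains. The 3′ minus 5′ signal of the SPT15 control probes was 1.33 and 1.34 in WT against 2.00 and 2.16 in snf1rad23, and 2.98 and 2.83 against 3.46 and 3.07 for SRB4, while ACT1 gave 0.12 and 0.11 against 0.08 and 0.12. The 5′ probes of 18S rRNA read 13.71 and 12.47 in WT against 12.15 and 9.86 in snf1rad23. The single deletions moved too, with SPT15 means of 1.62 in snf1 and 2.09 in rad23 and 18S means of 10.43 and 9.99. At 60 min after UV the 18S order was the reverse, at 9.69 and 13.23 in WT against 15.12 and 14.89 in snf1rad23. The part of these shifts in any result below was not tested.

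In all, 2078 probe sets were called between snf1rad23 and WT, 38.6% of those tested, with 929 higher (17.3%) and 1149 lower (21.4%). The median over all tested probe sets was -0.10, so the lists below are read against a small downward shift. More rises than falls were large: 401 rises and 212 falls passed 2-fold, and 46 rises and 9 falls passed 8-fold. Each single deletion differed from the same WT arrays at a similar number, 2436 probe sets for snf1 (45.3%) and 2561 for rad23 (47.6%). Directly between deletion strains, 1365 were called for snf1rad23 minus rad23 (25.4%) and 1133 for snf1rad23 minus snf1 (21.1%). Since these comparisons share arrays, their values are set side by side and their overlap is not read. Leaving out 1 array of WT or snf1rad23 left 1127 to 1811 calls, the fewest without WT replicate 2.

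The transporters and enzymes of non-fermentable carbon sources set the double deletion apart from the rad23 deletion. JEN1, the lactate and pyruvate permease, read 3.47 and 3.10 in snf1rad23, 3.52 and 3.03 in WT, 3.43 and 3.54 in snf1, and 9.43 and 9.19 in rad23. Its difference from WT was 0.01 ± 0.17 (adjusted p = 0.98), and its difference from rad23 was -6.03 ± 0.17, 65.3-fold lower (adjusted p = 2.2e-18). The rad23 arrays alone were high, and the other 3 strains overlapped close to the bottom of the scale. ADY2, an acetate transporter, behaved alike, at 3.81 and 3.08 in snf1rad23 and 3.57 and 3.12 in WT against 10.55 and 10.74 in rad23, 147-fold lower than in rad23 (-7.20 ± 0.27, adjusted p = 1.5e-15). ADH2, the alcohol dehydrogenase that oxidises ethanol, read 8.19 and 7.86 in snf1rad23, 7.89 and 7.45 in WT and 13.34 and 13.88 in rad23, a difference from rad23 of -5.58 ± 0.46 (adjusted p = 3.4e-09). Thus the 3 genes were not called against WT and were 48-fold or more below rad23.

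Among the enzymes that make sugar from small acids, some read about as low as in WT and others above it. FBP1, fructose-1,6-bisphosphatase, read 2.76 and 2.63 in snf1rad23, against 2.16 and 2.02 in WT, where it was at background, 4.67 and 4.63 in snf1, and 10.66 and 11.60 in rad23. It was 346-fold lower than in rad23 (adjusted p = 6.5e-13) and also lower than in snf1, by 1.95 ± 0.43 (adjusted p = 0.0029). The glyoxylate cycle genes ICL1, isocitrate lyase, and MLS1, malate synthase, were also lowest in WT and snf1rad23. ICL1 read 5.93 and 6.33 in snf1rad23 against 6.76 and 6.11 in WT, 7.59 and 7.53 in snf1, and 11.42 and 11.94 in rad23. MLS1 read 3.07 and 2.85 in snf1rad23 against 2.81 and 2.82 in WT, 4.94 and 5.05 in snf1, and 8.23 and 9.77 in rad23, 65.8-fold below rad23 (adjusted p = 7.4e-10). None of the 3 was called against WT, and all were lower than in snf1, by 1.43 for ICL1 and 2.04 for MLS1 (adjusted p = 0.0053 and 0.003). The ICL1 call was lost without snf1rad23 replicate 1 (-1.23, adjusted p = 0.08), and the MLS1 call with quantile normalization (-1.41, adjusted p = 0.051).

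A second set was raised over WT in snf1rad23 to about the level of snf1. SFC1, the mitochondrial succinate-fumarate carrier, read 6.32 and 6.41 against 1.88 and 2.51 in WT, a rise of 4.17 ± 0.56 (adjusted p = 5.6e-06) from a group with 1 of its 2 arrays at background, beside 7.03 and 6.86 in snf1 and 11.36 and 11.89 in rad23. PCK1, the PEP carboxykinase of gluconeogenesis, rose from 8.80 and 8.47 to 10.02 and 10.52 (1.64 ± 0.30, adjusted p = 0.00019), beside 9.83 and 10.46 in snf1 and 13.38 and 14.17 in rad23. For both genes no snf1rad23 array reached the rad23 arrays or fell to the WT arrays. AGX1, which makes glycine from glyoxylate, rose from 8.12 and 7.50 to 10.63 and 10.12 (2.57 ± 0.29), and the cytosolic isocitrate dehydrogenase gene IDP2 from 7.69 and 7.84 to 9.46 and 9.63 (1.78 ± 0.26). The acetyl-CoA synthetase gene ACS1 (1.58 ± 0.24) and the malate dehydrogenase gene MDH2 (1.45 ± 0.27) rose as well.

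Counted over the list, 6 of 14 genes of gluconeogenesis and the glyoxylate cycle were called higher than WT in snf1rad23 and 1 lower, with a median of 0.48, beside 17.3% higher and 21.4% lower among all probe sets. The 1 lower gene was the pyruvate carboxylase gene PYC1 (12.61 and 12.57 against 13.47 and 13.53, -0.91 ± 0.23). In snf1 the comparison with the same WT arrays gave 9 higher and a median of 1.24 (21.6% of all probe sets higher), and in rad23 12 higher and a median of 3.59 (22.2%). Directly against rad23, 12 of the 14 were lower in snf1rad23 (median -1.76, where 14.4% of all probe sets were lower), and 7 without rad23 replicate 2. Directly against snf1, 3 were lower (11.6% of all probe sets). Of 5 transporters of acids, ammonium or glycerol, 4 were not called against WT and 1 was lower, the ammonium exporter gene ATO3 (12.45 and 11.93 against 13.11 and 12.94), and all 5 were lower than in rad23.

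**Figure D1:**
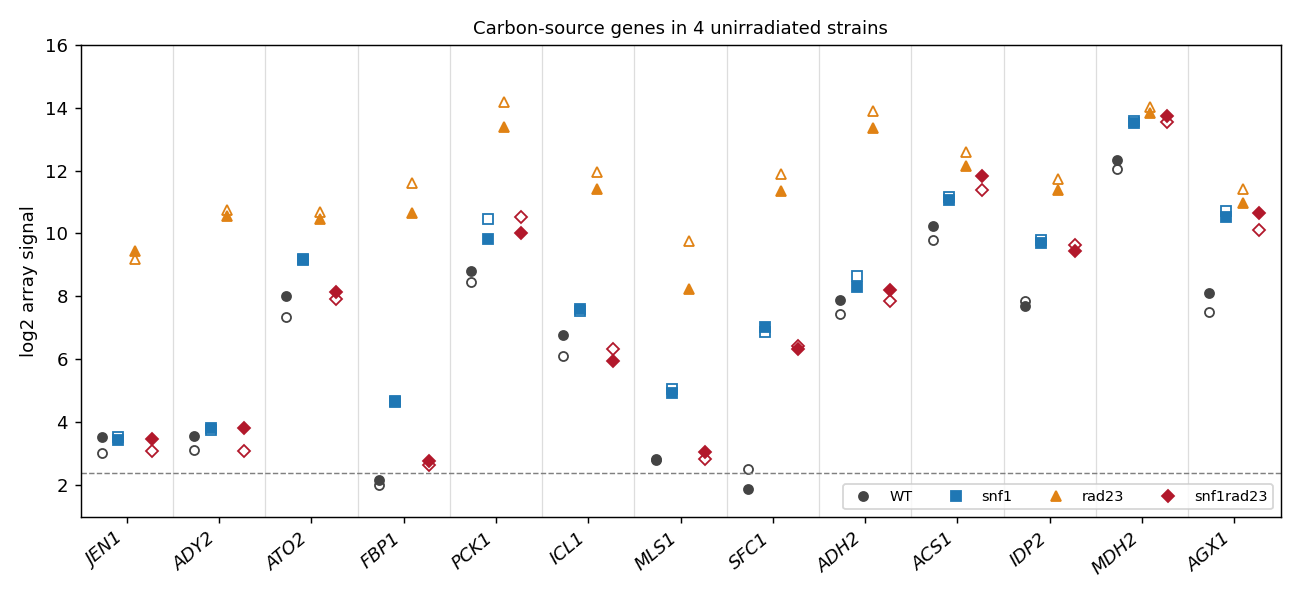
Log2 array signal of 13 genes of carbon source use in 4 unirradiated strains. Each symbol is 1 array, filled for replicate 1 and open for replicate 2, and the dashed line marks the background limit. For JEN1, ADY2, FBP1, ICL1, MLS1 and ADH2 the snf1rad23 arrays lie beside WT and far below rad23, while for SFC1, PCK1, IDP2, MDH2 and AGX1 they lie above WT.

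Activator genes were called in both directions. ADR1, the activator of ADH2 and peroxisomal genes, was higher than in WT, at 11.01 or just under on both arrays against 9.38 and 9.45 (1.59 ± 0.19, adjusted p = 1.4e-06). CAT8, the activator of gluconeogenic genes, was not called against WT (5.35 and 6.05 against 6.04 and 5.56, -0.10, adjusted p = 0.91) and was 7.61-fold lower than in rad23, where it read 8.4 and 8.86. GSM1, a zinc cluster protein gene, rose by 1.73 ± 0.22. The HAP complex, which activates respiratory genes, went the other way at HAP2, which fell from 10.46 and 10.52 to 8.87 and 9.54 (-1.29 ± 0.21, adjusted p = 5.5e-05). HAP4, its regulated subunit, gave -1.04, a call lost without snf1rad23 replicate 1 (-0.73, adjusted p = 0.096). In total 4 of 11 activator genes were higher and 3 lower than in WT, with a median of -0.10, the value over all probe sets. Of all probe sets 17.3% were higher and 21.4% lower.

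Of 8 repressor genes 2 were higher than WT (1 without WT replicate 1 or snf1rad23 replicate 2) and 1 lower, where 38.6% of all probe sets were called, and of 17 genes of glucose sensing 6 were higher (3 without WT replicate 2) and 5 lower. MIG1, the repressor that Snf1 phosphorylates, was lower at 9.90 and 9.89 against 11.37 and 11.17 in WT (-1.38 ± 0.30, adjusted p = 0.00096), beside 9.99 and 9.75 in snf1 and 11.92 and 11.78 in rad23. The 2 strains without SNF1 lay together, below the 2 strains that have it. MIG2, a related repressor, read 9.87 and 9.73, not called against WT (adjusted p = 0.18) but 5.22-fold above the 7.46 and 7.37 of snf1 (adjusted p = 9.4e-05). NRG1, another glucose repressor, rose from 10.18 and 10.02 to 11.03 and 11.56 (1.19 ± 0.28). MTH1, the corepressor of hexose transporter genes, fell from 9.97 and 9.77 to 6.38 and 6.48, 10.9-fold (-3.44 ± 0.40, adjusted p = 7e-07). At MTH1 the double deletion was also below snf1 (8.19 and 8.07, adjusted p = 0.0042) and below rad23 (11.94 and 11.81, adjusted p = 4.8e-10), so all 4 strains were apart.

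Of the kinase's own partners, TOS3, which encodes a kinase that activates Snf1, rose from 8.55 and 8.27 to 10.45 and 11.01 (2.32 ± 0.17, 5.0-fold, adjusted p = 3.5e-10). The subunit genes moved little: SNF4, the gamma subunit, gave -0.50 ± 0.11 (adjusted p = 0.0014, and 0.057 in a fit of the 4 arrays alone). The beta subunit gene GAL83 gave -0.64, a call that was lost without any 1 of the 4 arrays. SIP1, SIP2, SAK1, ELM1 and REG1 were not called.

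Hexose transporters, which bring glucose into the cell, are expressed by glucose level and affinity. Of 10 tested transporter genes of 16 listed, 3 were lower than WT in snf1rad23 and 1 was higher, beside 21.4% lower and 17.3% higher among all probe sets. HXT7, a high-affinity transporter, fell from 12.01 and 11.28 to 9.01 and 9.44 (-2.42 ± 0.42, adjusted p = 9.9e-05), and HXT2 from 14.56 and 14.41 to 13.44 and 12.95 (-1.29 ± 0.26, adjusted p = 0.00056). Both were also low in snf1 and not in rad23, where HXT7 read 13.72 and 13.46. HXT5, a transporter of slow-growing cells, was the higher gene, at 8.12 and 7.77 against 5.49 and 3.72 (3.34 ± 0.73, adjusted p = 0.001). HXT4 read 10.14 and 10.23 against 11.86 and 11.40, a difference of -1.44 that lost its call without any 1 of the 4 arrays, but it was 21.8-fold below the rad23 arrays, at 14.63 and 14.64 (adjusted p = 1.2e-06). Against rad23, 7 of the 10 were lower (14.4% of all probe sets). The probe set of HXT7 can bind near-identical transporter transcripts, so its gene identity is uncertain.

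Fatty acid oxidation takes place in peroxisomes, and its genes are repressed by glucose. Of 24 tested genes of beta-oxidation and the carnitine shuttle, 14 were higher than WT in snf1rad23 (17.3% of all probe sets) and 2 lower, with a median of 0.82. POT1, the thiolase of the last step, was at background in WT (2.01 and 2.02) and read 7.37 and 7.11 in snf1rad23, at least 29.4-fold higher, beside 7.38 and 7.61 in snf1 and 6.59 and 7.64 in rad23. The 3 deletion strains overlapped at POT1 and WT stood alone. POX1, the acyl-CoA oxidase of the initial step, rose from 4.52 and 4.0 to 8.86 and 8.03 (4.19 ± 0.52, 18.2-fold), but stayed below snf1 (10.67 and 10.84) by 2.31 (adjusted p = 0.0032). PEX18, needed for import of the thiolase, rose from 2.69 and 2.42 to 5.95 and 6.93 (3.88 ± 0.37), while rad23 (3.16 and 3.28) stayed near WT. SPS19, a dienoyl-CoA reductase gene, rose by 2.23 ± 0.27. The inner membrane carnitine carrier gene CRC1 rose by 2.32 ± 0.54 to 8.15 and 7.39, 10.9-fold below rad23 (10.96 and 11.49). The thiolase and oxidase genes were thus raised over WT, where JEN1 and ADY2 were not called.

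The largest rises over WT came at genes that were also high in one or both single deletions. SHH3, a homologue of a succinate dehydrogenase subunit gene, was at background in WT (2.1 on both arrays) and read 9.89 and 10.13 in snf1rad23, at least 201-fold higher (adjusted p = 1.3e-09), beside 10.43 and 10.54 in snf1 and 6.32 and 7.74 in rad23. DAK2, dihydroxyacetone kinase, rose from 3.90 and 2.89 to 10.17 and 9.90, 99.7-fold. MOH1, a gene induced in stationary phase, rose from 4.48 and 4.03 to 10.64 and 10.17, 71.3-fold. In these 3 genes the double deletion lay with snf1 and at or above rad23.

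FDH1, formate dehydrogenase, read 9.41 and 10.04 in snf1rad23 against 3.37 and 3.39 in WT, 81.1-fold higher (6.34 ± 0.44), and above rad23 (5.77 and 6.71) by 3.48. DAL4, the allantoin permease, rose from 5.73 and 6.03 to 11.33 and 10.76, 35.9-fold. GPG1, a G protein subunit mimic involved in glucose signalling, rose from 7.63 and 7.42 to 12.28 and 12.64, 30.6-fold, to the level of both single deletions. TKL2, a transketolase gene, rose from 4.66 and 2.93 to 8.52 and 8.42. INO1, which makes inositol phosphate, rose from 6.10 and 4.92 to 9.37 and 9.72 (4.04 ± 0.66, adjusted p = 5.8e-05), while its activator gene INO2 fell from 11.26 and 11.14 to 9.17 and 9.75 (-1.74 ± 0.25, adjusted p = 1.4e-05). For INO1 and INO2 the WT arrays lay outside the range of all 3 deletion strains.

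Some genes differed mainly between the strains with and without SNF1. FLO1, a lectin-like surface protein that makes cells clump, read 13.23 and 13.17 in snf1rad23 and 13.86 and 13.90 in snf1, against 6.09 and 6.29 in WT and 8.93 and 9.28 in rad23, a rise of 7.01 ± 0.30 over WT (129-fold, adjusted p = 2.3e-14). The rad23 arrays sat above WT yet far below both strains without SNF1. Against WT, FLO10 rose by 1.89 ± 0.29 (adjusted p = 2.5e-05) and FLO9 from 10.47 and 9.92 to 14.10 and 13.95. The FLO9 probe set can cross-hybridise with other flocculin transcripts. Of 8 tested flocculin genes, 2 were called higher in snf1rad23 than in rad23 (11% of all probe sets) and 1 lower. In rad23, 5 of the 8 were higher than WT (22.2% of all probe sets), so the list does not divide by SNF1 alone. YMR315W-A, an uncharacterised gene, was near background in WT (3.09 and 2.20) and rad23 (2.14 and 2.96) and read 6.94 and 7.02 in snf1rad23 (4.33 above WT). In both WT and rad23 1 of its 2 arrays was at background. YAR068W, an uncharacterised gene, fell from 10.32 and 9.85 in WT to 5.25 and 5.23, 28.7-fold (-4.84 ± 0.18), with 5.44 and 5.59 in snf1 and 9.87 and 9.91 in rad23. YAR066W, which shares sequence with other genes, fell at least 26.6-fold. At each of these loci snf1rad23 was within 1 log2 unit of snf1.

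Other large falls came at genes that read lower in the double deletion than in the other 3 strains. GSY1, a glycogen synthase gene, read 7.73 and 8.60 in snf1rad23 against 12.20 and 11.68 in WT, 11.05 and 11.08 in snf1, and 12.50 and 12.11 in rad23. It was 13.7-fold below WT (adjusted p = 1.7e-07), 7.49-fold below snf1 and 17.6-fold below rad23 (adjusted p = 2.5e-05 and 3.7e-08), and neither single deletion was called against WT. The snf1rad23 arrays were well under the lowest array of any other strain. MPC3, a mitochondrial pyruvate carrier subunit of respiring cells, read 6.41 and 5.99 against 8.86 and 8.54 in WT, 8.4 and 8.63 in snf1, and 13.17 and 13.25 in rad23, 5.66-fold below WT (-2.50 ± 0.32, adjusted p = 3.3e-06) and 129-fold below rad23. MRK1, a glycogen synthase kinase 3 homologue gene, read 2.70 and 4.77 against 6.75 and 6.13, a fall that lost its call without snf1rad23 replicate 1 (-1.67, adjusted p = 0.076). YPL113C, a putative dehydrogenase gene, fell from 7.94 and 7.68 to 5.61 and 4.93 (-2.54 ± 0.33) and YLL066W-B, an uncharacterised gene, from 6.97 and 6.74 to 3.59 on both arrays.

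ISF1, which has a role in respiratory growth, fell from 10.17 and 9.20 to 5.87 and 7.09 (-3.21 ± 0.61, adjusted p = 0.00026). YKR075C, a gene of unknown role, fell from 11.55 and 11.05 to 8.21 and 8.85 (-2.78 ± 0.51). Both were low in snf1 (7.92 and 7.95 for ISF1, 7.82 and 7.26 for YKR075C) and highest in rad23. The mRNA decapping factor gene EDC1 gave -3.26, which depended on WT replicate 2 (8.29 against 6.28 in replicate 1). Without it the difference was -2.24 (adjusted p = 0.135).

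**Figure D2:**
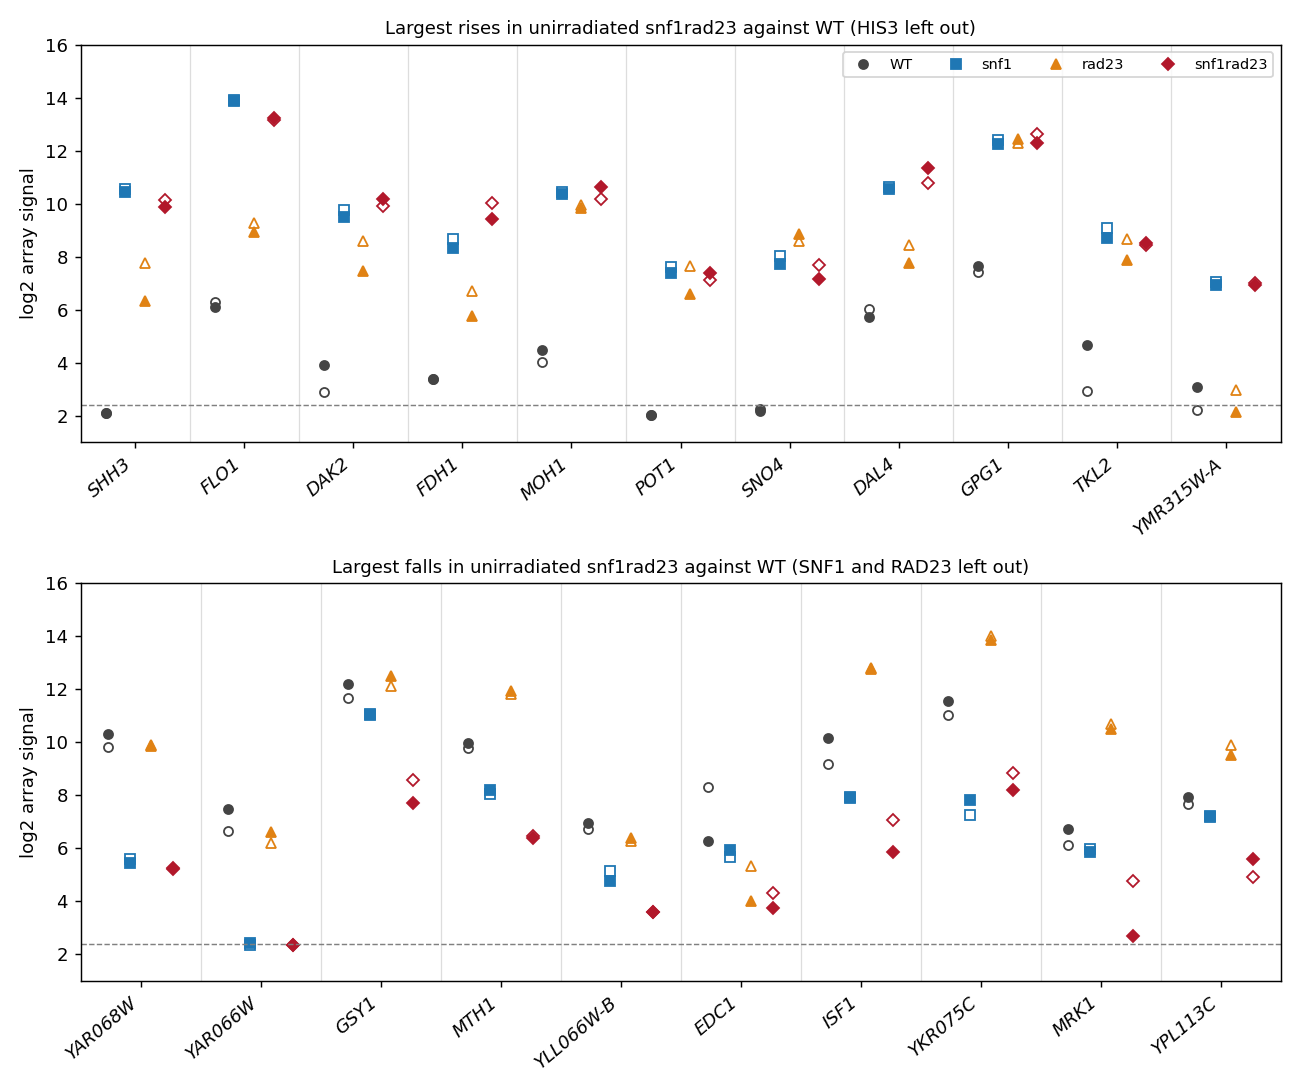
Log2 array signal of the genes with the largest rises (above) and falls (below) in unirradiated snf1rad23 against WT, in 4 strains, with the deleted genes and HIS3 left out. Filled and open symbols are replicates 1 and 2, and the dashed line is the background limit. In the upper panel WT is lowest or close to it at every gene, and in the lower panel snf1rad23 is lowest or close to it.

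Of 49 tested genes of the general stress list, 24 were higher than WT in snf1rad23 (17.3% of all probe sets) and 5 lower (median 0.73), and 15 were higher without WT replicate 2. In snf1 the comparison gave 40 higher and a median of 1.75 (21.6% of all probe sets higher), and in rad23 37 higher and a median of 1.66 (22.2%). Directly, 20 of the 49 were lower in snf1rad23 than in rad23 (14.4% of all probe sets) and 18 lower than in snf1 (11.6%). Both counts were smaller without snf1rad23 replicate 1. The interaction term, which asks whether removing SNF1 had another effect in rad23 cells than in cells with RAD23, was called negative for 42 of the 49, beside 19.6% of all probe sets. GRE1, a hydrophilin gene, rose from 4.62 and 4.79 to 8.22 and 9.40 (4.11 ± 0.52). PHM8, a nucleotidase gene, rose from 9.59 and 9.27 to 12.03 and 12.74 (2.95). SNO4, a chaperone-like gene of stationary phase, was at background in WT and read 7.17 and 7.68 in snf1rad23, at least 33.5-fold higher, with a probe set that can bind its close homologues.

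In glycogen and trehalose metabolism 7 of 20 genes were higher than WT and 1, GSY1, was lower (median 0.20), with 4 higher without snf1rad23 replicate 2. Among all probe sets 17.3% were higher and 21.4% lower. GSY2, the major glycogen synthase gene, rose from 10.79 and 10.38 to 11.93 and 12.29 (1.53 ± 0.20). The paralogous synthase genes thus went opposite ways. The trehalase gene NTH1 rose from 11.82 and 11.89 to 12.95 and 13.46 (1.35 ± 0.20). The phosphorylase gene GPH1 rose by 1.11, a call lost without WT replicate 2 (0.82, adjusted p = 0.12).

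Most genes of respiration were raised. Of 35 tested nuclear genes of the respiratory chain and ATP synthase, 26 were higher than WT in snf1rad23 (17.3% of all probe sets) and the other 9 were not called (median 0.60). That count was close to 31 in snf1 (median 0.61, 21.6% of all probe sets) and 30 in rad23 (median 0.63, 22.2%). NDE2, an external NADH dehydrogenase gene, rose most, from 3.78 and 3.77 to 7.52 and 7.59 (3.78 ± 0.53). INH1, the inhibitor of ATP synthase running in reverse, rose from 10.36 and 10.32 to 12.64 and 12.58 (2.27 ± 0.22). Smaller rises came at QCR10, a cytochrome bc1 subunit gene (12.72 and 12.73 to 13.91 and 13.86), and RIP1, the Rieske protein gene (0.90 ± 0.14). In the tricarboxylic acid cycle 8 of 15 were higher and 7 not called. They included 3 succinate dehydrogenase subunit genes, SDH2 (11.87 and 11.62 to 13.29 and 12.99, 1.40 ± 0.17), SDH3 (1.06 ± 0.13) and SDH4 (1.28 ± 0.11, adjusted p = 1.3e-08). The count in the cycle was 5 without WT replicate 2 and 4 without snf1rad23 replicate 2. No removal of 1 array moved the respiratory chain count by over 1.5 times.

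**Figure D3:**
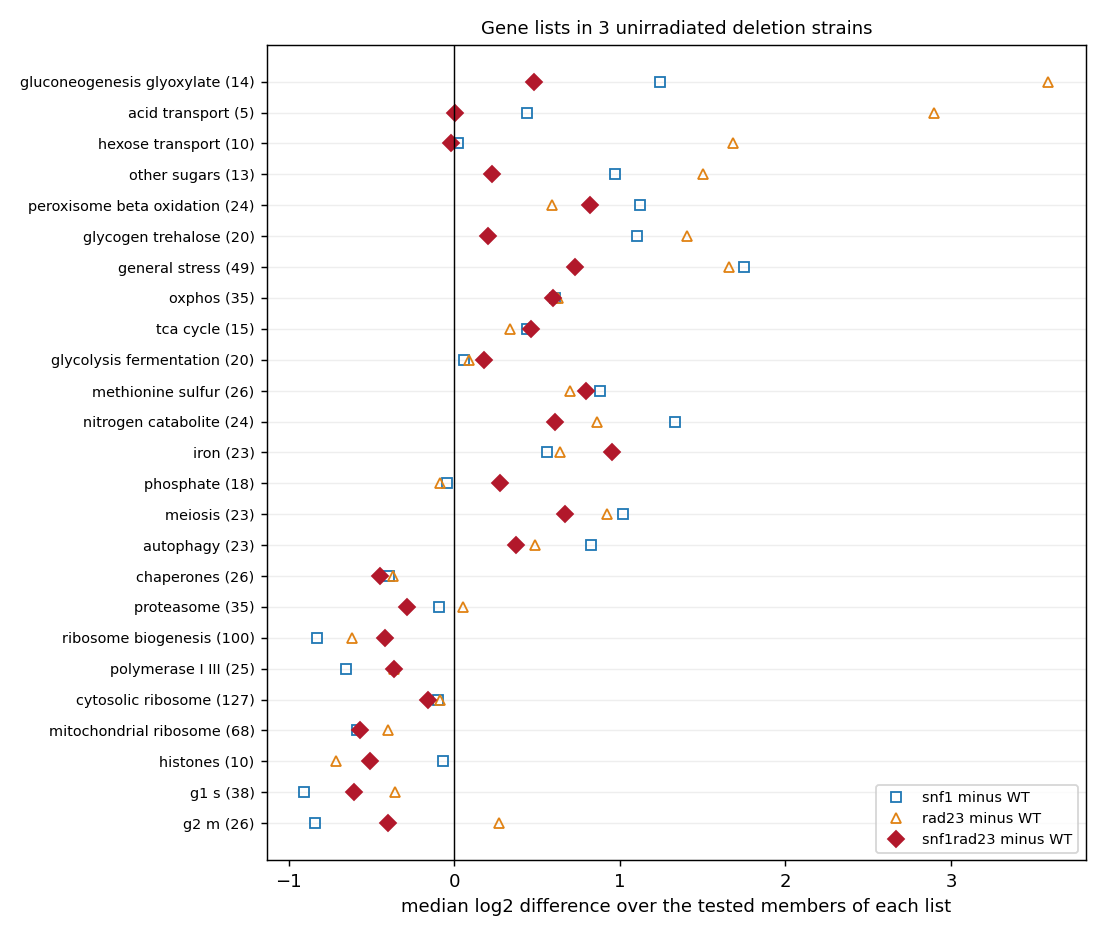
Median log2 difference from WT over the tested members of 25 gene lists (number tested in brackets), for unirradiated snf1, rad23 and snf1rad23. Each symbol is the median over genes of 1 strain's difference, and the 3 strains share the same WT arrays. The snf1rad23 median is nearest 0 of the 3 for the gluconeogenesis, acid transport, glycogen and trehalose, and general stress lists, and the 3 coincide near 0.6 for the respiratory chain.

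Of 18 tested genes of the phosphate regulon, 7 were higher than WT in snf1rad23 (17.3% of all probe sets) and 11 not called (median 0.28). In snf1 3 were higher and 4 lower, beside 21.6% higher and 23.6% lower among all probe sets. In rad23 4 were higher and 6 lower, beside 22.2% and 25.4%. Directly against rad23, 8 were higher (11% of all probe sets). PHO5, the secreted acid phosphatase, rose from 12.84 and 12.58 to 15.07 and 15.04 (2.34 ± 0.50, adjusted p = 0.00079), beside 14.85 and 14.80 in snf1 and 12.09 and 12.25 in rad23. PHM6, a phosphate-regulated gene, rose from 6.88 and 6.77 to 11.04 and 10.32 (3.85 ± 0.72), above every array of snf1 and rad23. GIT1, which imports glycerophosphoinositol, rose from 6.98 and 6.55 to 9.77 and 9.62 (2.93 ± 0.29, adjusted p = 7e-08). PHO89, a sodium-phosphate cotransporter gene, rose by 1.70 (adjusted p = 0.0014).

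Lists for scarce iron, sulfur and nitrogen held more higher than lower genes. Of 23 iron uptake genes 14 were higher (17.3% of all probe sets) and 1 lower (median 0.95), and 7 were higher without WT replicate 2 and 9 without snf1rad23 replicate 1. FRE2, a ferric reductase gene, read 7.40 and 7.41 against 5.51 and 4.97 in WT (2.16 ± 0.32), and TIS11, which speeds the decay of iron-using mRNAs, read 11.65 and 12.30 against 9.90 and 9.40 (2.32 ± 0.46). The siderophore transporter genes ARN1 and ARN2 rose by 1.75 ± 0.29 and 1.92 ± 0.29. Of 26 genes of methionine synthesis and sulfate assimilation 14 were higher and 1 lower (median 0.80). Examples are the regulator gene MET28 (3.78 and 4.02 to 6.34 and 6.87), STR3, a cystathionine lyase gene (1.92), and SUL2, a sulfate permease gene (8.01 and 7.67 to 9.53 and 9.11). Of 24 genes for poor nitrogen sources 9 were higher and 15 not called, with 5 higher without WT replicate 2. Among them were the urea transporter gene DUR3 (7.33 and 7.09 to 10.03 and 9.67, 2.64 ± 0.34) and the general amino acid permease gene GAP1 (9.25 and 9.12 to 10.92 and 10.61). Of 38 genes of amino acid synthesis 10 were higher, 9 lower and 19 not called (median 0.19), beside 17.3% higher and 21.4% lower among all probe sets. The largest fall in that list was at LEU1, the isopropylmalate isomerase of leucine synthesis. It read 13.08 and 13.35 against 14.73 and 14.76 (-1.53 ± 0.09, adjusted p = 2.5e-11).

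Of 100 ribosome assembly factors 39 were lower than WT (21.4% of all probe sets) and 61 not called (median -0.42), but the count fell to 10 without WT replicate 2 and 18 without snf1rad23 replicate 1. In snf1 86 were lower (median -0.83, 23.6% of all probe sets) and in rad23 67 (median -0.62, 25.4%). Directly against snf1, 34 of the 100 were higher in snf1rad23 (median 0.41, where 9.42% of all probe sets were higher), with 15 to 21 when 1 array was left out. RRP15, a pre-60S factor gene, read 10.85 and 10.38 against 11.78 and 12.15 in WT (-1.35 ± 0.28), and RRP7, a pre-40S factor gene, 10.75 and 10.76 against 11.56 and 11.77 (-0.91 ± 0.16). Among RNA polymerase I and III subunits 10 of 25 were lower, 5 without WT replicate 2. They included RPC17, which fell from 10.02 and 10.03 to 9.29 and 8.76, and RPC31 (-1.10).

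Of 68 mitochondrial ribosomal protein genes 42 were lower (21.4% of all probe sets) and 26 not called (median -0.57), with 11 lower without WT replicate 2 and 26 without snf1rad23 replicate 2. MRPL28 read 9.78 and 9.89 against 10.66 and 11.08. Of 127 cytosolic ribosomal protein genes 30 were lower, a share close to the 21.4% of all probe sets, and 1 higher, with a median of -0.16 beside -0.10. That count was 6 in a fit of the 4 arrays alone, 10 without WT replicate 2 or snf1rad23 replicate 1 and 15 after median centring of the arrays. The 1 higher gene was RPS28B (0.85).

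Of 38 G1 cyclin and G1/S genes 17 were lower (21.4% of all probe sets) and 1 higher (median -0.61), with 9 lower without WT replicate 2. CLB6, an S-phase cyclin gene, fell from 8.19 and 7.85 to 6.78 and 5.69 (-1.78 ± 0.39, adjusted p = 0.001), and CTF18, a clamp loader subunit gene, from 8.87 and 9.42 to 7.61 and 8.01. The G1 cyclin CLN3, upstream of the others, was the higher gene (13.21 and 12.68 against 11.93 and 11.47, 1.24 ± 0.22). Of 26 genes of the CLB2 cluster and mitotic exit 10 were lower and 1 higher, and 6 were lower without either WT replicate 2 or snf1rad23 replicate 2. The deacetylase gene HST3 fell from 8.66 and 8.90 to 7.47 and 7.25 (-1.43 ± 0.20) and the cytokinesis gene HOF1 by 1.40. In rad23 7 of these 26 were higher than WT, a share close to the 22.2% of all probe sets, and the rest were not called. In snf1 17 were lower (23.6% of all probe sets). Of 10 histone genes 7 were lower, 3 without WT replicate 2. They included the linker histone gene HHO1 (12.51 and 12.92 to 11.34 and 11.64), the variant HTZ1 (12.45 and 12.33 to 11.47 and 11.21) and HHT1 (14.42 and 14.47 to 13.53 and 13.65).

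The pathways in which Rad23 works held called genes in both directions. Of 24 nucleotide excision repair genes, RAD23 included, 3 were higher and 4 lower (38.6% of all probe sets were called). ABF1, a DNA-binding factor of global genome repair, fell from 11.39 and 11.48 to 10.14 and 9.93 (-1.40 ± 0.23, adjusted p = 4.8e-05), while the calls of RAD16 (0.77) and RAD34 (-1.12) were lost in part when 1 array was left out. Among 16 genes of ubiquitin shuttling, 2 were higher and 4 lower, again with RAD23, a share close to that of all probe sets. The ubiquitin-conjugating enzyme gene UBC5 rose from 10.89 and 10.56 to 12.51 and 12.19 (1.62 ± 0.21) and the polyubiquitin gene UBI4 from 13.06 and 13.26 to 13.92 and 14.24 (0.92 ± 0.23). The other shuttle factor genes DSK2 (-0.11) and DDI1 (-0.49) were not called. Of 35 proteasome genes 5 were lower (median -0.28), a share below the 21.4% of all probe sets. These calls were all lost without WT replicate 2.

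Ribonucleotide reductase makes the building blocks of DNA and is induced by damage. In unirradiated snf1rad23 its large subunit gene RNR1 read 13.18 and 12.18 against 12.71 and 12.50 in WT (0.07, adjusted p = 0.86), and RNR2 and RNR3 were not called. HUG1, an inhibitor of the enzyme and a common reporter of the checkpoint, read 7.95 and 8.46 against 6.54 and 6.67 in WT. Its rise of 1.6 ± 0.44 (adjusted p = 0.0067) was not called without snf1rad23 replicate 2 (1.34, adjusted p = 0.065). Against rad23, at 11.85 and 12.49, HUG1 was 15.6-fold lower (-3.97 ± 0.44, adjusted p = 4.9e-07), and against snf1, at 8.33 and 8.61, it was not called (adjusted p = 0.73). The high HUG1 signal of unirradiated rad23 was thus not present in the double deletion.

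The arrays taken after UV give the strain difference in samples that share no array with the unirradiated ones, although they also hold any difference in the UV response. At 30 min 1989 probe sets were called (37%), 961 higher (17.9%) and 1028 lower (19.1%). At 60 min 2767 were called (51.4%), 1423 higher (26.4%) and 1344 lower (25%), but only 96 in a fit of the 4 arrays alone. Of the 929 higher unirradiated, 601 were also higher at 30 min, which is 64.7% of the unirradiated and 62.5% of the 30 min calls, and 5 were lower. Of the 1149 lower, 605 were also lower at 30 min (52.7% and 58.9%), and 7 were higher. At 60 min 632 of the higher and 580 of the lower were called the same way, and 30 and 58 the opposite way. Across the 5380 probe sets, which share the arrays' background and are not independent, the differences had a Pearson r of 0.78 with those at 30 min and 0.65 with those at 60 min. The WT arrays at 60 min were over 2-fold apart at 780 probe sets, against 16 at 30 min, and the 60 min values carry that spread.

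Many of the largest unirradiated differences were found again. SHH3 was at background in WT at 30 min (2.01 on both arrays) and read 10.18 and 11.03 in snf1rad23 (8.60), and FDH1 rose over WT by 7.54 at 30 min and 7.79 at 60 min. YAR068W stayed lower, by 4.55 at 30 min, and LEU1 read 12.80 and 12.95 against 14.59 and 14.57 (-1.70). PHO5 (2.33) and GIT1 (2.47) were again higher at 30 min, and PHM6 read 10.50 and 11.22 against 4.23 and 3.99. Groups did not overlap at any of these genes.

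**Figure D4:**
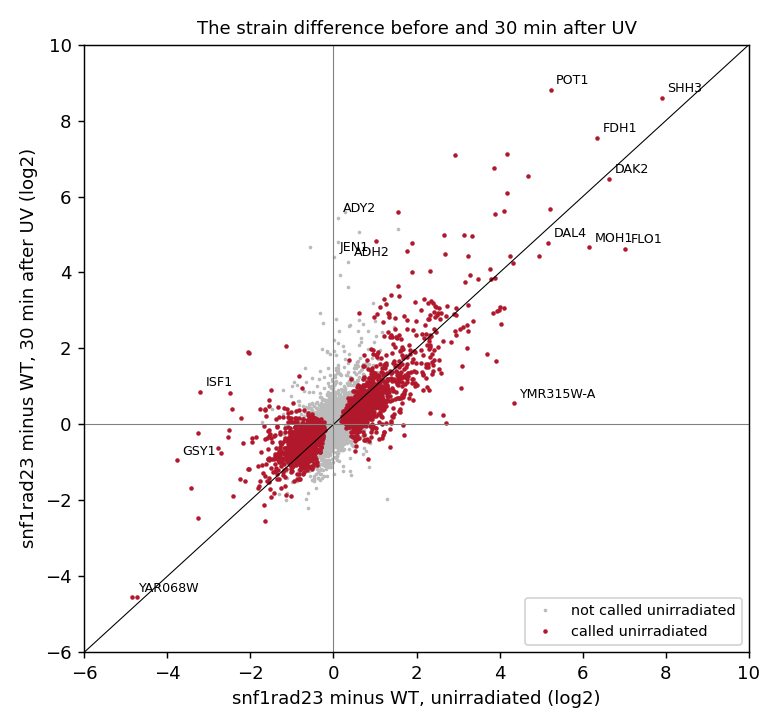
Log2 difference of snf1rad23 from WT at 30 min after UV against the same difference in unirradiated cells. Each point is 1 tested gene within the axes, by its brightest probe set, coloured where called unirradiated. The diagonal marks equal differences. SHH3, FDH1, DAK2 and YAR068W lie near it, JEN1, ADY2 and ADH2 far above it, and YMR315W-A far below it.

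For other genes the strain difference 30 min after UV was not that of unirradiated cells. No unirradiated array is labelled with a time after treatment, so UV and time cannot be told apart here. A test of the difference at 30 min minus the unirradiated difference called 170 probe sets (3.16%), 107 upward (1.99%) and 63 downward (1.17%), with 49 to 250 when 1 array was left out, fewest without snf1rad23 30 min replicate 2. JEN1 read 7.54 and 7.35 in snf1rad23 at 30 min against 3.03 on both WT arrays, a difference of 4.41 ± 0.17 where there was none before UV (change 4.41 ± 0.24, adjusted p = 1.9e-11). ADY2 read 9.08 and 9.01 against 4.11 and 3.09 (change 5.33 ± 0.39, adjusted p = 4e-09). ADH2 read 14.56 and 14.87 against 10.71 and 10.15 (change 3.93 ± 0.65, adjusted p = 0.0011). The 3 carbon genes that were not called against WT before UV were therefore well above WT at 30 min. At 60 min JEN1 had come down to 4.16 and 3.76, ADY2 to 6.72 and 6.27, and ADH2 stayed at 14.14 and 14.24. The same test at 60 min called 1061 (19.7%), 591 upward (11%) and 470 downward (8.74%), of which 11 were called in a fit of the 8 arrays alone.

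POT1, already high, rose to 10.97 and 10.68 while WT stayed at background (change 3.58 ± 0.43). At GSY1 the difference narrowed from -3.78 to -0.94, as WT came down to 9.07 and 8.92 and snf1rad23 read 8.02 and 8.08 without overlap (change 2.83 ± 0.56, adjusted p = 0.0057). MPC3 reached 11.49 and 11.74 in snf1rad23 against 11.04 and 10.53 in WT (change 3.33 ± 0.46, adjusted p = 0.0001). Neither GSY1 nor YPL113C was called against WT at 30 min (adjusted p = 0.063 and 0.45). In the other direction, FLO1 narrowed from 7.01 to 4.63 (change -2.39 ± 0.43) and YMR315W-A from 4.33 to 0.55 (change -3.78 ± 0.39, adjusted p = 1.8e-06), its snf1rad23 arrays falling to 2.44 and 2.81.

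**Figure D5:**
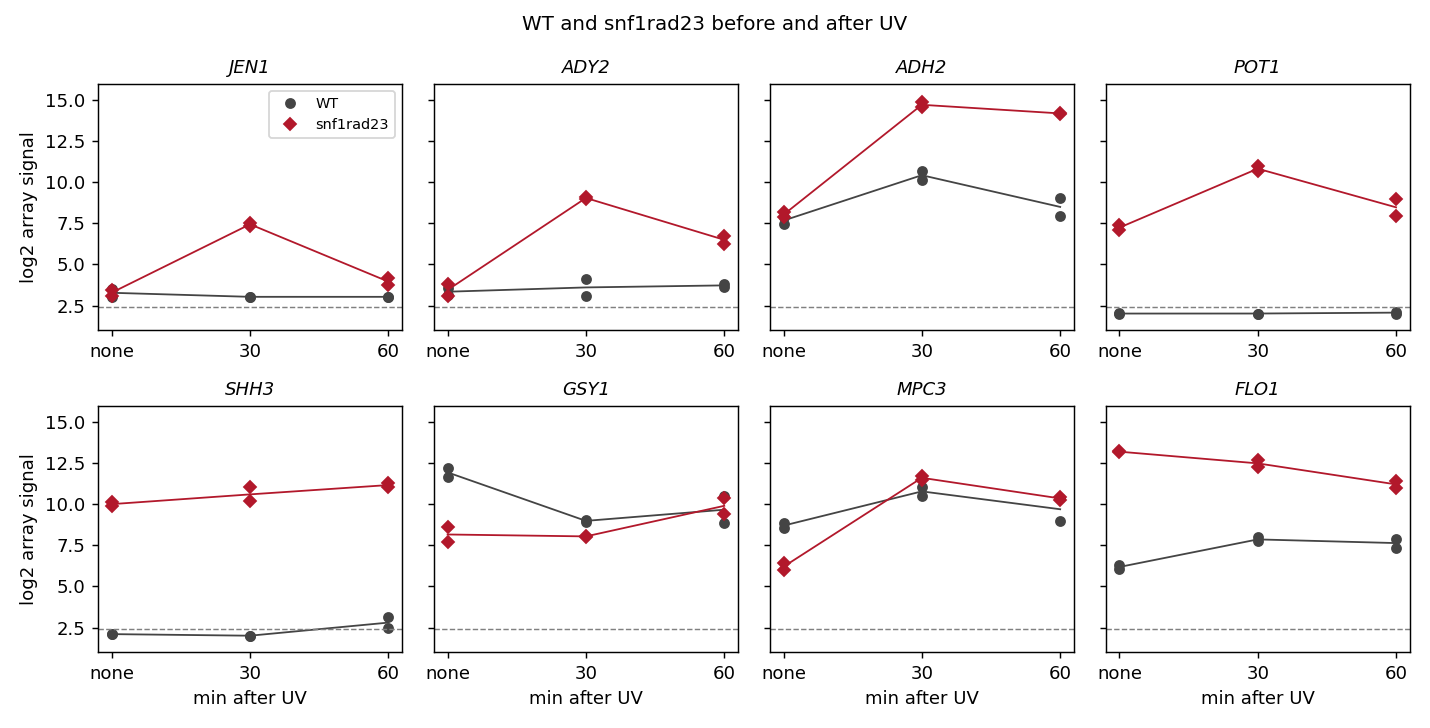
Log2 array signal of 8 genes in WT and snf1rad23 unirradiated and 30 and 60 min after UV. Points are single arrays, lines join group means, and the dashed line is the background limit. JEN1 and ADY2 separate from WT only after UV, SHH3 is apart at all times, and the gap in GSY1 is narrower at 30 min.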

How the data were processed

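The 41 samples were measured on Affymetrix Yeast 2.0 arrays. The deposited values are on the log2 scale, computed by the authors with GCRMA 2.10.0 in R 2.6.2 per the submitters' processing notes, and run from 1.62 to 15.96. GCRMA corrects background by probe sequence, normalizes arrays to 1 distribution and summarises each probe set, so a change shared by most transcripts would be removed. No build or scan date is given in the sources used here. Precision is limited by the number of arrays.

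The array holds 10928 probe sets. Controls and reporters account for 213, 3470 have no listed gene, 1 has several and 5498 match a budding yeast gene of the R64 gene table. Tested were the 5380 that reached 4 on at least 2 arrays (5337 genes; for the 42 with several probe sets the brightest stands for the gene). The 1746 listed with genes absent from that table, which include the array's fission yeast probe sets, gave a background, their 95th percentile of 2.12 to 2.19 per array. A group whose arrays all lay below it or within 0.2 above it has only a bound, so its fold is given as at least N-fold.

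Groups came from the sample labels. With limma 3.58.1 in R 4.3.3, 1 mean for each of 21 groups was fitted to all 41 arrays (20 residual and 2.86 prior degrees of freedom), with Benjamini-Hochberg adjustment over 5380 probe sets. Lists are described by their counts and medians without a set test. The labels do not state that a replicate number marks a shared batch, so no replicate term was used. Replicate differences of unirradiated WT, snf1, rad23 and snf1rad23 correlated in both directions between strains (Pearson r over probe sets from -0.32 to 0.29). Other groups were not checked for this. The alternatives changed the filter (none, or by background), the scaling (quantile, or centring on the median), the prior (robust, with an intensity trend), the weights or number of the arrays, or the replicate term, or left out 1 array.

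The comparison, the 43 gene lists and the rule for named genes were chosen with earlier results of these data known, and the tests of a change of the strain difference after UV were added after values were seen. Named are the deleted, neighbouring, marker and mating-type genes, of the called genes the 12 largest rises and 12 largest falls at most, up to 10 for the interaction and 6 for each deletion strain pair in each direction, and up to 5 members of each list (every member of 8 lists). Among these, genes whose calls held without any 1 array were preferred. Promoter motifs and sequences were not analysed here.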

Additional observations from a re-analysis of the deposited data

Results flagged for a closer look

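The effect of removing SNF1 in rad23 cells (snf1rad23 minus rad23) differed from its effect in cells with RAD23 (snf1 minus WT) at 2003 probe sets, 37.2% of those tested, in an interaction term of the limma fit. The difference of these effects was negative, a stronger fall or weaker rise in rad23 cells, by over 8-fold at 184 probe sets, and positive by over 8-fold at 6. The most negative values were at carbon and starvation genes: FBP1 (-10.99), SFC1 (-10.01), MLS1 (-8.22), RGI2 (-7.79), ADY2 (-7.64), PUT4 (-7.14), SNO4 (-6.96), YMR206W (-6.85), MPC3 (-6.82) and ICL1 (-6.68). For FBP1, RGI2, SNO4 and YMR206W at least 1 of the 4 groups was at background, and for SFC1 1 of the 2 WT arrays was, so their values depend on the floor of the scale.

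The most positive values were at HO (6.91), HMS2 (3.55), AQR1 (3.39), PCL1 (3.39), TOS6 (3.23), YMR230W-A (3.10), FAR1 (2.91), RRN11 (2.70), NUD1 (2.67) and YHP1 (2.65). HO, the mating-type switching endonuclease gene, read 10.09 and 10.52 in WT, 7.42 on both snf1 arrays, 4.59 and 5.44 in rad23, and 9.57 and 8.51 in snf1rad23. RRN11, a polymerase I factor gene, read 6.29 and 6.31 in snf1 and 8.71 or more in the other 3 strains. TOS6 lost its call without snf1rad23 replicate 1 (2.89, adjusted p = 0.056). By list, the term was called negative for 12 of 14 gluconeogenesis and glyoxylate genes and 42 of 49 general stress genes. It was also negative for 26 of 35 respiratory chain genes, beside 19.6% of all probe sets. For 76 of 100 ribosome assembly factors it was positive (17.7% of all probe sets). The term includes the WT arrays, so a gene equally far from WT in all 3 deletion strains also moves it. Respiratory chain medians against WT were 0.61 in snf1, 0.63 in rad23 and 0.60 in snf1rad23. Directly, 6 of those 35 were lower in snf1rad23 than in rad23, and 4 lower than in snf1. These shares are close to the 14.4% and 11.6% of all probe sets. The part of the shared WT arrays was not tested.

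The difference between snf1rad23 and WT itself changed between unirradiated cells and 30 min after UV at 170 probe sets. Among the named genes the change was 5.33 at ADY2, 4.41 at JEN1, 3.93 at ADH2, 3.58 at POT1, 3.33 at MPC3, 2.83 at GSY1, -2.39 at FLO1 and -3.78 at YMR315W-A. Groups of 2 arrays were not screened for outlying arrays.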

How the results depend on the processing

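The number of called probe sets was between 1127 and 1811 for snf1rad23 minus WT when 1 array was left out, against 2078. It was 705 to 1064 against rad23, 413 to 1068 against snf1, 1492 to 1875 for the interaction, 980 to 1782 at 30 min and 2264 to 2694 at 60 min. A fit of the contrast's arrays alone gave 1390 against WT (1274 of them among the 2078), 790 against rad23, 913 against snf1 and 96 at 60 min, a fit of the unirradiated arrays 2590 against WT, and array weights gave 575 at 60 min, where the WT arrays disagree. With quantile normalization snf1rad23 minus snf1 gave 630 higher and 519 lower, against 507 and 626, and the median of all probe sets for snf1rad23 minus WT was -0.10 as deposited, -0.09 with quantile normalization and -0.06 after centring. The replicate number is not stated to mark a shared batch, so the samples were not paired by it. With the replicate number as a block the counts were 2107 against WT, 1402 against rad23, 1185 against snf1, 2037 for the interaction, 2021 at 30 min and 2788 at 60 min. Of 14452 values for named genes under the alternatives, 1658 lost their call and 2 reversed, both at 60 min: JEN1 to -0.22 with quantile normalization and NPL4, which gave -1.29 without WT replicate 1, to 0.069 without WT replicate 2. Of 559 list counts for snf1rad23 minus WT, 70 moved by over 1.5 times. Besides those given with the results, the only-unirradiated fit gave 27 lower G1/S genes, 46 lower cytosolic ribosomal genes and 14 lower proteasome genes, and the fit of 4 arrays 22 lower assembly factors and 6 lower cytosolic ribosomal genes. The change of the strain difference at 30 min was called at 94 probe sets in a fit of its 8 arrays. The planned search of promoters for motifs was not run.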

Other observations

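Some genes stood apart from WT and from both single deletions in the same direction, each of the 3 comparisons being called. The comparisons share the snf1rad23 arrays and the genes were picked after their values were seen, so they are given as values. INM1, an inositol monophosphatase gene, read 11.77 and 12.04 in snf1rad23 against 10.85 and 10.95 in WT, 11.23 and 11.28 in snf1, and 11.04 and 10.70 in rad23 (1.01 ± 0.14 above WT). HOM3, the aspartate kinase gene of threonine and methionine synthesis, read 14.49 and 14.25 against 13.65 to 13.78 in the other 3 strains (0.69 ± 0.13 above WT). The a-factor gene MFA1 read 14.23 and 14.25 against 13.64 and 13.53 in WT, 13.48 and 13.50 in snf1, and 12.90 and 13.34 in rad23. In the other direction RGI1, a respiratory growth gene whose paralogue is RGI2, read 11.14 and 12.02 against 14.11 and 13.94 in WT, 14.32 and 14.37 in snf1, and 14.45 and 14.19 in rad23, 5.44-fold below WT (adjusted p = 0.0017).

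Some subtelomeric and meiotic genes were higher as well. Among all probe sets 17.3% were called higher than WT and 21.4% lower. Of 24 tested genes of subtelomeric families, whose probe sets can cross-hybridise, 14 were higher than WT (median 0.91), among them PAU5, a seripauperin gene, which read 7.18 and 7.74 against 4.41 and 4.18, and AAD10, which read 11.13 and 11.59 against 8.78 and 8.77. Of 23 meiosis and sporulation genes 7 were higher and 1 lower (4 higher without WT replicate 2), among them the sporulation glucoamylase gene SGA1, at 7.30 and 7.71 against 5.07 and 4.97. Of 26 chaperone genes 12 were lower and 1 higher, and 2 were lower without WT replicate 2. The DnaJ-type cochaperone gene SIS1 fell by 1.19.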
